A study of Homo sapiens with 6 samples.

Results

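The OAS genes OAS1, OAS2, OAS3 and OASL were examined in COV434 cells with and without BRG1. They are 4 of the 19899 gene symbols in the deposited table and were taken by symbol. They were selected on their large difference between BRG1 and Control samples in these same data, so that difference is described here without a test. COV434 is an ovarian tumor cell line grouped here with SCCOHT, the hypercalcemic small cell carcinoma of the ovary, which lacks BRG1, the SWI/SNF chromatin remodeling ATPase encoded by SMARCA4. Control cells received the plasmid pCDNA3-neo and BRG1 cells the plasmid PBJ5-BRG1. Both groups also received pBABE-puro, went on puromycin at 2 to 3 µg/ml after 24 hours and were pelleted 3 days later (n = 3 in each group). BRG1 therefore came from a plasmid in transiently transfected, drug selected cells, and both groups carried plasmid DNA. As the plasmids differed between the groups, BRG1 and the plasmid that carried it cannot be told apart here.

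The OAS proteins belong to the antiviral arm of the interferon response. OAS1, OAS2 and OAS3 bind double-stranded RNA and join ATP into short chains of adenylates known as 2-5A, a signal that leads to the cutting of viral and cellular RNA. They carry increasing numbers of copies of the same unit. OASL has the same fold followed by ubiquitin-like domains, makes no 2-5A, and acts on the RNA sensor RIG-I and the DNA sensor cGAS. All of these genes are classical targets of ISGF3, the transcription factor complex that binds the interferon-stimulated response element (ISRE) in promoters.

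OAS1, OAS3 and OAS2 lie side by side on the plus strand of chromosome 12 (GRCh38, GENCODE release 44). OAS1 runs from 112905856 to 112933219, OAS3 from 112938051 to 112976460 and OAS2 from 112978395 to 113011723, with gaps of 4831 and 1934 bases between them. OASL lies 8.01 Mb further along, on the minus strand, from 121017763 to 121039246. Exons of an antisense long noncoding RNA cover 1.70% of the exonic bases of OAS1, and no other gene shares exonic bases with OAS2, OAS3 or OASL. The libraries did not keep strand, so reads of that antisense RNA cannot be told apart from OAS1 reads.

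The promoters of OAS1 and OAS3 are shown because the ISRE is the element through which interferon acts on these genes. Each sequence is the 250 bases before the RefSeq start (GRCh38.p14, plus strand, 5′ to 3′), at chr12:112906712-112906961 for OAS1 and chr12:112938224-112938473 for OAS3. Both windows lie inside the GENCODE spans given above, which start at 112905856 for OAS1 and 112938051 for OAS3. Bases before those GENCODE starts were not searched. Capitals mark matches to GAAA followed by GAAA after a spacer of 2 bases of any kind or of 1 base, each searched on both strands. The spacer of 1 base was added after the OAS1 sequence had been seen.
OAS1: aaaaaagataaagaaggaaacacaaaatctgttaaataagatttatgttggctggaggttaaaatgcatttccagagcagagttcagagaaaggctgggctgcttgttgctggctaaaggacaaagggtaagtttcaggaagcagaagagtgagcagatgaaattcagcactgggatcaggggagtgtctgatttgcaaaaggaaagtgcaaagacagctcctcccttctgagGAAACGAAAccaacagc
OAS3: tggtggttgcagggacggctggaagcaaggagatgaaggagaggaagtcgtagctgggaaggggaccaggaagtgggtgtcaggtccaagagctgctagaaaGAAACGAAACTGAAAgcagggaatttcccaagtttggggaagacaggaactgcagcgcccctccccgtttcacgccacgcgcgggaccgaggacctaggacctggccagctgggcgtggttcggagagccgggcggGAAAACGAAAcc
OAS1 held 1 match, GAAACGAAA, with the spacer of 1 base, between 17 and 9 bases before its start. OAS3 held 3 matches. GAAAACGAAA lay between 12 and 3 bases before the start, and GAAACTGAAA, between 143 and 134 bases before it, overlapped a GAAACGAAA. Of 22114 promoters of this length, 3.21% held the motif with the spacer of 2 bases and 2.83% that with the spacer of 1 base. At least 1 of these motifs, as marked here, was in 5.81%. Of the other interferon response genes compared here, 10 had a promoter in the same table and 10 of those 10 held the spacer of 2 bases, while 2 of the 10 held the spacer of 1 base, the only one found for OAS1. The spacer of 2 bases was also in 1 of 7 promoters of nucleic acid sensing genes and in 4 of 15 of interferon signalling genes. A match describes the letters in this window and does not show binding.

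Libraries held 29699741 to 63613710 estimated counts. SMARCA4 was checked first, and its normalised count (estimated count divided by the library's size factor) had a Control mean of 1551 ± 119 and a BRG1 mean of 88773 ± 17220 (SD, n = 3), the latter with transcripts of the plasmid included. SMARCA2, the other ATPase gene, which SCCOHT also lacks, stood at 16.5 ± 11.2 and 24.2 ± 15.7 (SD, n = 3). Leukocytes hold much OAS RNA, and of 12 leukocyte markers 4 were at 3 counts or fewer in every sample of both groups. PTPRC, the leukocyte antigen CD45, had 336 to 670 normalised counts in Control and 360 to 722 in BRG1 samples. CD68, a lysosomal protein, had the highest counts of the 12, from 1179 to 3553. Of the 12 markers, 7 had a DESeq2 adjusted p. LYZ, with at most 22.7 normalised counts, was the 1 marker called higher by DESeq2 at an adjusted p under 0.05. That call was lost without BRG1 replicate 2 (DESeq2 adjusted p 0.0614). With samples paired by replicate number (the replicate block), CD68 was called higher too (DESeq2 adjusted p 0.00132), as it was without Control replicate 1 (DESeq2 adjusted p 0.00926). The summed level of the 12 ran from 1870 to 2878 in Control and from 2453 to 3951 in BRG1 samples, and its part in the results below was not tested. Over all genes tested, DESeq2 called 11.0% higher and 1.84% lower, and edgeR 9.57% and 1.02%. With the replicate block DESeq2 called 13.4% higher and 6.62% lower, and edgeR 13.7% and 5.68%.

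OAS3, whose product makes 2-5A at low levels of double-stranded RNA, had the highest Control counts of the 4 genes. Control samples 1 to 3 had 1231, 1095 and 1008 normalised counts of OAS3. BRG1 samples 1 to 3 had 26507, 28983 and 24448. The groups lay far apart and each was tight, with a Control mean of 1112 ± 112 and a BRG1 mean of 26646 ± 2270 (SD, n = 3), a ratio of 23.97. On the log2 scale the fitted difference was 4.58 ± 0.15 (SE).

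OASL had 175, 116 and 119 normalised counts in Control samples 1 to 3. It had 4948, 5573 and 3942 in BRG1 samples 1 to 3. Every BRG1 sample was above every Control sample, and the group means of 136 ± 33.3 and 4821 ± 823 (SD, n = 3) differed 35.3-fold. On the log2 scale the fitted difference of OASL was 5.15 ± 0.23 (SE).

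OAS1 and OAS2 had low counts without BRG1. OAS1 had 19.1, 59.0 and 26.6 normalised counts in Control samples 1 to 3 and 8537, 7422 and 7308 in BRG1 samples 1 to 3. Control sample 2 held the most OAS1 of its group, whereas the BRG1 samples were nearly level. The means of OAS1 were 34.9 ± 21.2 and 7756 ± 679 (SD, n = 3), a ratio of 222 and a fitted log2 difference of 7.81 ± 0.32 (SE).

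OAS2 had 11.1, 1.68 and 10.6 normalised counts in Control samples 1 to 3 and 4956, 3126 and 2041 in BRG1 samples 1 to 3. Control sample 2, the highest for OAS1, was the lowest for OAS2. The means of OAS2 were 7.78 ± 5.28 and 3374 ± 1473 (SD, n = 3), a ratio of 434 and a fitted log2 difference of 8.76 ± 0.49 (SE). OAS2 alone of the 4 would have passed a filter of 10 counts in 3 samples only through its BRG1 samples, and its fold had the largest standard error of the 4.

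**Figure D1:**
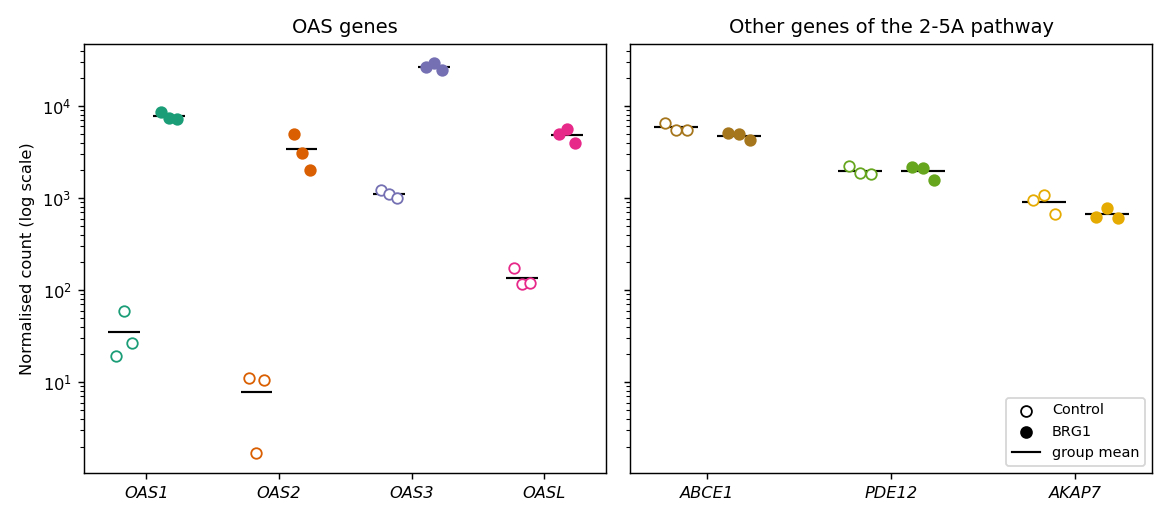
Normalised counts (log axis) of the 4 OAS genes and of ABCE1, PDE12 and AKAP7 in each of the 3 Control (open) and 3 BRG1 samples (filled), with group means as lines. The OAS genes stand 23.97 to 434 times higher by group means in BRG1 samples. The Control and BRG1 means are 5845 and 4782 for ABCE1, 1976 and 1958 for PDE12, and 903 and 669 for AKAP7.

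In all 4 genes every BRG1 sample was above every Control sample. That was so for 16.0% of the 14218 genes with a mean of at least 10 normalised counts, and, as the contrast chose these genes, their count carries no further weight. Among 11685 genes with a mean of at least 100, OAS2 ranked 29 by fitted log2 fold change, OAS1 50, OASL 205 and OAS3 241. The order of the fold changes was the reverse of the order of the Control levels. Together the 4 genes took 0.00250% to 0.00311% of all estimated counts in Control and 0.0851% to 0.0997% in BRG1 samples. In bulk RNA a change in the share of expressing cells and a change in RNA per cell cannot be told apart.

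The BRG1 samples differed among themselves more for OAS2 than for the other OAS genes. OAS2 was 2.43 times as high in BRG1 sample 1 as in sample 3, against 1.17 times for OAS1, 1.08 times for OAS3 and 1.26 times for OASL. BRG1 sample 2 over sample 3 gave 1.53 for OAS2, 1.02 for OAS1, 1.19 for OAS3 and 1.41 for OASL. SMARCA4 was 1.38 times as high in sample 1 as in sample 3, and over the 20 other interferon response genes the median of this ratio was 1.59. With 3 samples no relation between BRG1 level and OAS level can be tested.

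Samples with the same replicate number resembled each other, so folds were also taken within each number. The fold of OAS3 was 21.5, 26.5 and 24.2 for numbers 1 to 3, and that of OASL 28.3, 48.2 and 33.2. The fold of OAS1 was 447, 126 and 275. That of OAS2 was 448 and 193 for numbers 1 and 3, and Control sample 2 held too few OAS2 counts for a ratio. The OAS3 folds were the most alike, and the spread of the OAS1 folds came with Control counts of 19.1, 59.0 and 26.6. For OAS2, Control samples 1 and 3 were nearly equal (11.1 and 10.6), while BRG1 samples 1 and 3 had 4956 and 2041.

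Levels of different genes are comparable only per length, so each normalised count was divided by the union of the gene's exons in kb. The deposited counts were already scaled by the lengths of the transcripts quantified, and those lengths were not used here. The shares below are therefore approximate and depend on the annotated length chosen. In Control, OAS3 made up 71.3% ± 1.68 and OASL 24.7% ± 3.16 of the summed length-adjusted level of the 4 genes, OAS1 3.18% ± 2.02 and OAS2 0.798% ± 0.546 (SD, n = 3). In BRG1 samples, OAS3 made up 47.3% ± 3.06, OASL 24.2% ± 1.91, OAS1 19.1% ± 1.82 and OAS2 9.40% ± 3.38 (SD, n = 3). The mix of OAS transcripts thus went from mostly OAS3 to one in which OAS1 and OAS2 took a visible share. OAS3 was the highest in every sample by this length, followed by OASL, and in BRG1 samples OAS1 stood above OAS2 in 3 of 3 samples.

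The ranking of OAS1 depends on the length used. The union of exons is 13.0 kb for OAS1, whereas its MANE Select transcript has 1631 bases, and with MANE Select lengths OAS1 made up 43.3% ± 2.80 and OAS3 36.8% ± 2.54 in BRG1 samples (SD, n = 3). OAS1 was then the highest in 3 of 3 BRG1 samples, and OAS3 remained the highest in every Control sample at 72.2% ± 2.14 (SD, n = 3). OAS2 was the lowest of the 4 by either length in every sample. Among 18185 genes with an annotated length, OAS3 was above 48.5% to 50.1% of genes in Control and above 93.0% to 94.1% in BRG1 samples, by counts per kb of exon union. OASL was above 41.3% to 43.7% of genes in Control and above 84.1% to 88.4% in BRG1 samples. OAS1 was above 27.9% to 34.3% of genes in Control and above 82.1% to 84.2% in BRG1 samples. OAS2 was above 19.1% to 25.6% of genes in Control and above 62.5% to 77.7% in BRG1 samples. These ranks were not repeated with another length, and they are approximate for the same reason as the shares.

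**Figure D2:**
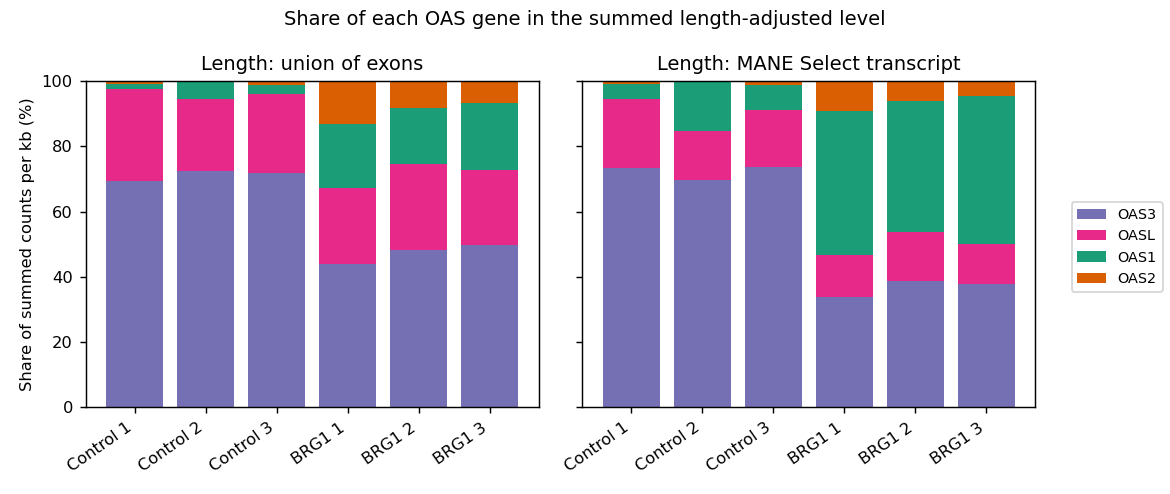
Share (%) of each OAS gene in the summed counts per kb of the 4 genes in each sample, with the union of exons (left) or the MANE Select transcript (right) as length. OAS3 has the largest share in all Control samples by both lengths, and in BRG1 samples the largest share is that of OAS3 by exon union (47.3% on average) and of OAS1 by MANE Select length (43.3%).

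The other genes of the 2-5A pathway were described next. ABCE1, a ribosome recycling factor that also acts in the 2-5A pathway, had 6566, 5452 and 5515 normalised counts in Control samples 1 to 3 and 5108, 4978 and 4259 in BRG1 samples 1 to 3. Its log2 fold change of -0.29 had a DESeq2 adjusted p of 0.277 (95% interval -0.59 to 0.01). With the replicate block DESeq2 called it lower (adjusted p 0.0326) and edgeR did not (adjusted p 0.0505). PDE12, a mitochondrial enzyme that degrades 2-5A, had 1976 ± 228 and 1958 ± 327 normalised counts (SD, n = 3), and its log2 fold change was -0.01 (95% interval -0.38 to 0.36, DESeq2 adjusted p 0.988). AKAP7, a kinase anchor with a phosphodiesterase domain that also degrades 2-5A, had 903 ± 209 and 669 ± 97.6 (SD, n = 3), and its log2 fold change was -0.43 (95% interval -0.89 to 0.03, DESeq2 adjusted p 0.298). Without Control replicate 3 AKAP7 was called lower (DESeq2 adjusted p 0.0476). Without the block and with all samples, DESeq2 called 0 of these 3 genes, edgeR called 0, and 0 had an unadjusted DESeq2 p under 0.05. Over all genes tested DESeq2 called 11.0% higher and 1.84% lower, so a count of 0 among 3 genes carries little weight. Their median log2 fold change was -0.29, against -0.01 over all 15991 genes tested.

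The genes of nucleic acid sensing that work beside the OAS proteins were compared next, a list of sensors with their adaptors MAVS, TICAM1 and TMEM173, the ubiquitin ligase TRIM25 and the RNA editing enzyme ADAR. DESeq2 called 9 of 12 higher and 0 lower, as did edgeR, against 11.0% (DESeq2) and 9.57% (edgeR) of all genes called higher. The median log2 fold change was 1.99 over the list and -0.01 over all genes tested. EIF2AK2, the gene of the double-stranded RNA kinase PKR, rose by 1.75 on the log2 scale, from 4136 ± 765 to 13906 ± 1984 normalised counts (SD, n = 3). DDX58, which encodes RIG-I, the sensor that OASL assists, rose by 3.99 ± 0.20 (SE) on the log2 scale (DESeq2 adjusted p 3.9e-82), from 506 ± 91.5 to 8001 ± 1248 normalised counts (SD, n = 3). TLR3, the endosomal sensor of double-stranded RNA, rose from 7.14 ± 3.38 to 172 ± 53.8 (SD, n = 3). IFIH1, which encodes the RNA sensor MDA5, rose by 2.22 on the log2 scale.

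ZBP1, a sensor of Z-form nucleic acid, was at 0 in every Control sample and had 19.6, 25.8 and 16.2 normalised counts in BRG1 samples 1 to 3, at least 6.53-fold higher against 3 counts per library. TMEM173, the STING adaptor gene, was at least 8.77-fold higher, and its call was lost without BRG1 replicate 1 (DESeq2 adjusted p 0.0954) or 2 (DESeq2 adjusted p 0.0618). MB21D1, the cGAS gene, had at most 5.37 normalised counts in any sample. MAVS and TICAM1, the adaptors of RIG-I and TLR3, had log2 fold changes of 0.14 and 0.46 and were not called by DESeq2 (adjusted p 0.785 and 0.230), although with the replicate block TICAM1 was called higher (DESeq2 adjusted p 0.0111), as it was without BRG1 replicate 3 (DESeq2 adjusted p 0.00685).

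The pathway known to drive OAS transcription was then followed from ligand to transcription factor. IFNB1, the interferon beta gene, had 0, 1.17 and 0 normalised counts in Control samples 1 to 3 and 79.0, 61.4 and 31.3 in BRG1 samples 1 to 3, at least 18.2-fold higher (DESeq2 adjusted p 6.8e-07). The ligand genes IFNL1, IFNL3, IFNK and IFNG were not called (DESeq2 adjusted p 0.102, 0.335, 0.739 and 0.979). The interferon receptor and Janus kinase genes IFNAR1, IFNAR2, IL10RB, IFNGR1, IFNGR2, JAK1, JAK2 and TYK2 had log2 fold changes between -0.14 and 0.51. DESeq2 called 0 of these 8, where it called 11.0% of all genes tested higher and 1.84% lower, so this count carries little weight. With the replicate block it called JAK1 and IFNGR1 higher (adjusted p 0.00450 and 0.0167), and JAK1 also without BRG1 replicate 3 (DESeq2 adjusted p 9.2e-04). IFNLR1, another receptor gene, was at 3 counts or fewer in every sample of both groups. Of the transcription factors, IRF9, a subunit of ISGF3, rose by 2.13 ± 0.14 (SE) on the log2 scale (DESeq2 adjusted p 1.1e-52), from 1550 ± 32.6 to 6796 ± 687 normalised counts (SD, n = 3), and STAT2, another subunit, rose by 1.33. IRF3 and IRF7 had log2 fold changes of -0.06 and 0.25 and were not called (DESeq2 adjusted p 0.935 and 0.962). IRF7 had at most 8.18 normalised counts in any sample. USP18, which turns off interferon receptor signalling, had a log2 fold change of 3.50. SOCS1, an inhibitor of Janus kinases, rose by 1.92 on the log2 scale (DESeq2 adjusted p 0.00276), a call that was lost without BRG1 replicate 1 (DESeq2 adjusted p 0.1104) or 2 (DESeq2 adjusted p 0.0633).

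Of 24 genes on the signalling list, 4 were at 3 counts or fewer in every sample of both groups, and 20 had a DESeq2 adjusted p. DESeq2 and edgeR each called 5 higher and 0 lower, against 11.0% (DESeq2) and 9.57% (edgeR) of all genes called higher. The median log2 fold change over the list was 0.51. With the replicate block each called 8 higher, against 13.4% (DESeq2) and 13.7% (edgeR) of all genes. IRF1, a transcription factor that can bind the ISRE, was chosen after its values were seen. It had 6400, 5760 and 570 normalised counts in Control samples 1 to 3 and 14244, 16698 and 2233 in BRG1 samples 1 to 3. Both samples numbered 3 were low, and IRF1 was called with the replicate block (DESeq2 adjusted p 1.1e-21) but not without it (DESeq2 adjusted p 0.586).

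**Figure D3:**
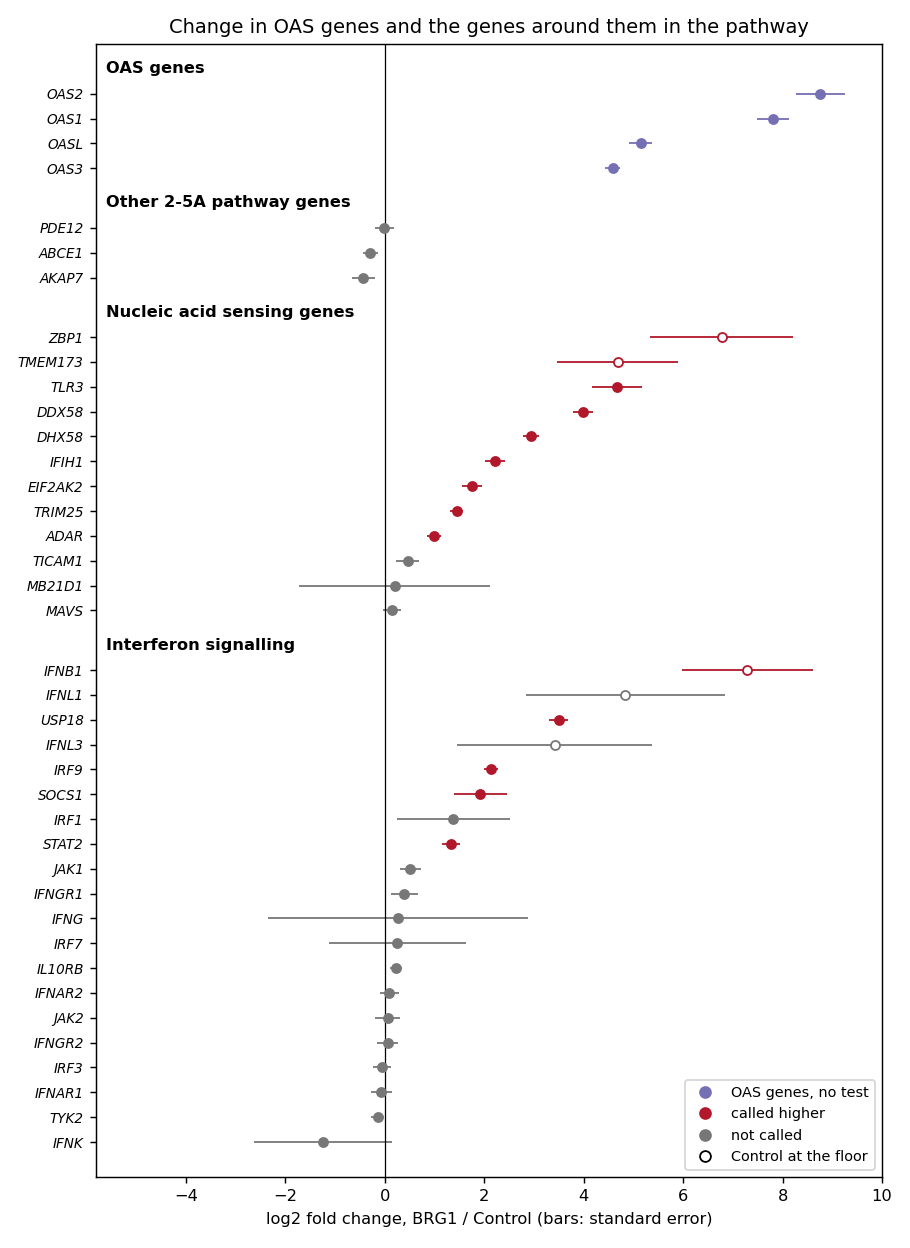
Log2 fold change (BRG1 over Control, points, with standard errors as bars) of the OAS genes, of 3 other 2-5A pathway genes, of 12 nucleic acid sensing genes and of interferon signalling genes, where red marks genes called higher by DESeq2, open points have Control at 3 counts or fewer in every sample, and genes at that floor in both groups are left out. The OAS genes lie between 4.58 and 8.76, those 3 genes are not called, and 9 of the 12 sensing genes are called higher. Of all genes tested, 11.0% are called higher and 1.84% lower.

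The OAS genes were set beside 20 other genes of the interferon response, the group most like them. DESeq2 and edgeR each called 19 of the 20 higher, against 11.0% (DESeq2) and 9.57% (edgeR) of all genes. The median log2 fold change of the 20 was 6.67. Values of the members ran from below to above this median. MX2, a restriction factor of viruses at the nuclear pore, IFITM1, which blocks viral fusion, and SAMD9 were at the floor in Control and at least 116-fold, 535-fold and 220-fold higher. IFI44 rose by 9.72 ± 1.35 (SE) on the log2 scale, from 0, 4.93 and 0 normalised counts in Control samples 1 to 3. The value was 12.8 without Control replicate 2 and 9.04 without Control replicate 3. The 1 gene not called was EPSTI1 (log2 fold change -1.09, DESeq2 adjusted p 0.292), with 28.4 to 114 normalised counts in Control and 23.3 to 45.3 in BRG1 samples. Several of these genes thus shared the low Control level of OAS1 and OAS2, and none of this comparison was tested against the OAS genes.

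The genes with profiles most like the mean of the OAS genes over the 6 samples, by Pearson's r of log2(normalised count + 1), were HSD3B2 (r = 0.9995), TNFSF10 (0.9993), HLA-C (0.9990), MX2 (0.9989) and HERC6 (0.9989). HSD3B2 encodes a steroid hormone enzyme, TNFSF10 the death ligand TRAIL, HLA-C a class I antigen presenting chain and HERC6 a ubiquitin ligase of the interferon response. HSD3B2 went from 34.9 ± 3.14 to 616 ± 92.7 normalised counts (SD, n = 3) and HERC6 from 138 ± 15.2 to 2696 ± 369 (SD, n = 3). Of 11681 genes compared, 133 had an r over 0.99. With samples in 2 separate groups such an r mainly records which group is higher, and the leading genes changed with the measure.

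Whether genes next to the OAS genes changed as well was examined within 300 kb. Of 17 neighbours described here, 13 had a mean of at least 10 normalised counts. DESeq2 called 2 of the 17 higher and 1 lower, and edgeR called 0 and 1, so that the DESeq2 share of higher calls was near the 11.0% of all genes. Of all genes tested, DESeq2 called 1.84% lower, and edgeR called 9.57% higher and 1.02% lower. At an unadjusted DESeq2 p under 0.05, 3 were higher and 1 lower. The share of all genes at that threshold was not computed, so these 2 counts carry no weight. Around the OAS1, OAS3 and OAS2 cluster, DTX1, CFAP73, DDX54, RITA1, IQCD, TPCN1 and SLC8B1 were not called. Around OASL, SPPL3, P2RX4, CAMKK2 and ANAPC5 were not called either. The 11 neighbours with a mean of at least 10 that were not called had log2 fold changes between -0.48 and 0.34.

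Further from OASL, the mitochondrial dehydrogenase gene ACADS rose by 0.88 on the log2 scale (DESeq2 adjusted p 0.00579), a call that was lost under edgeR (adjusted p 0.0676) and without Control replicate 2 or 3 or BRG1 replicate 1 or 2 (DESeq2 adjusted p 0.0691, 0.0585, 0.0976 and 0.0963). The ACADS call was also lost under limma-voom (adjusted p 0.0576) and was kept with the replicate block (DESeq2 adjusted p 0.00293, edgeR adjusted p 0.0179). UNC119B fell by 0.49 on the log2 scale (DESeq2 adjusted p 0.0106), a call that was lost without Control replicate 1 or 2 or BRG1 replicate 2 (DESeq2 adjusted p 0.124, 0.105 and 0.123). It was kept under edgeR (adjusted p 0.0366) and with the replicate block (DESeq2 adjusted p 3.7e-04, edgeR adjusted p 0.0140). TPCN1 was called lower with the replicate block (DESeq2 adjusted p 0.00361). RPH3A, which ends 6975 bases before OAS1, falls outside the naming rule and was picked with its values known. It had 0, 1.28 and 0 normalised counts in Control samples 1 to 3 and 5.77, 11.7 and 14.2 in BRG1 samples 1 to 3. It was at least 3.35-fold higher (DESeq2 adjusted p 0.0206), and the call was lost with the replicate block (DESeq2 adjusted p 0.0552) and without any 1 of 5 of the 6 samples.

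**Figure D4:**
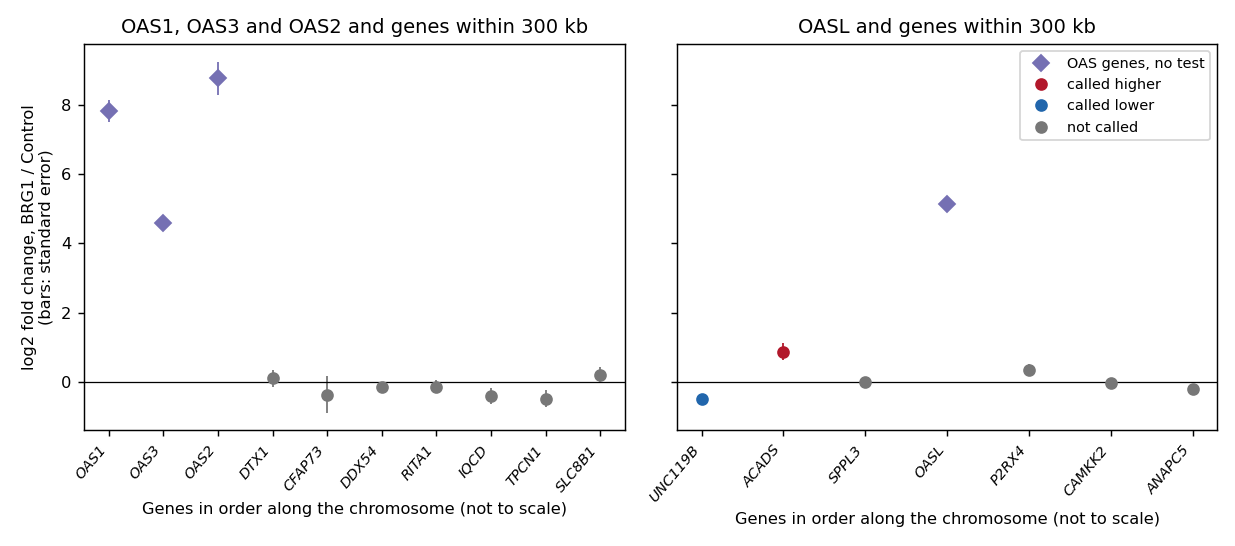
Log2 fold change (BRG1 over Control, with standard errors as bars) of the OAS genes (diamonds) and of neighbouring genes within 300 kb with a mean of at least 10 normalised counts (circles), in chromosomal order. The OAS genes lie at 4.58 or above and the 13 neighbours between -0.49 and 0.88.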

How the data were processed

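RNA-seq was measured in 6 samples of COV434 cells, 3 Control and 3 BRG1. Poly(A) RNA libraries, without strand, were sequenced as paired reads of 78 bases. The authors checked reads with FastQC (0.11.5), aligned them with STAR (2.5.3a) to hg38 with GENCODE release 24, quantified transcripts with Salmon (0.8.2) and brought them to gene level with tximport. Per the labels and the study's methods, the authors deposited length-scaled estimated counts, 1 row per gene symbol, without normalisation for depth. Salmon shares out reads that fit several genes by a model.

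The estimated counts were rounded and tested over the whole table with DESeq2 (1.42.0) in R 4.3.3, as the study used DESeq2, with no covariate and median-ratio size factors. A gene was called at a Benjamini-Hochberg adjusted p under 0.05. Of 19899 genes, 18096 had a count and 15991 an adjusted p. edgeR (4.0.16) and limma-voom (limma 3.58.1) were alternatives. On simulated data DESeq2 called more unchanged genes than its threshold names and edgeR did not, so edgeR counts are given beside DESeq2 counts. The series' design text calls the samples of a group biological replicates. Same-numbered samples deviated together from their group means (r = 0.34, 0.30 and 0.46 over 14218 genes), so the numbers were taken to pair the samples. Symbols were matched to GENCODE release 44 for positions and lengths (18185 genes). A group with 3 counts or fewer in each sample was at the floor, and folds against it use 3 counts per library. Intervals and floors cover only the spread or counting error of these 6 samples.

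The members and the gene lists were chosen with earlier results of these data known. Named were the members, all genes of the 2-5A pathway list, of each other list the 4 called genes with the largest absolute log2 fold change and a mean of at least 10 and all that were not called where these were 5 or fewer, neighbours with a mean of at least 10, the 5 genes most like the OAS profile, SMARCA4 and SMARCA2. Genes named beyond this rule, such as EIF2AK2, IFIH1, STAT2 and the receptor and kinase genes, were chosen after their values were seen. Some genes of the lists and some neighbours are not reported here and are left out of the counts of these lists.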

Additional observations from a re-analysis of the deposited data

How the results depend on the processing

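Under all 12 alternatives run the log2 fold changes of the OAS genes kept their direction. They ran from 7.55 to 8.36 for OAS1, 8.29 to 9.13 for OAS2, 4.52 to 4.66 for OAS3 and 5.03 to 5.35 for OASL. The counts of sensing and interferon response genes called higher stayed within 1.5 times, and beyond the results given here the replicate block moved no other count of genes called higher by more. The number of signalling genes called higher (5) was 8 with the replicate block under DESeq2 and under edgeR. The number of neighbours called higher (2) was 0 with edgeR and limma-voom and 1 with the replicate block under DESeq2 or edgeR and with a filter of 10 counts in 3 samples, and ran from 0 to 1 when 1 sample was left out. The number of 2-5A pathway genes called lower (0) was 1 for DESeq2 with the replicate block and without Control replicate 3. That of neighbours called lower (1) was 2 for DESeq2 and for edgeR with the replicate block, and 0 without Control replicate 1, Control replicate 2 or BRG1 replicate 2. With the MANE Select length, added after the data were seen, the shares in BRG1 samples were 43.3% for OAS1, 36.8% for OAS3 and 13.4% for OASL, because OAS1 is then counted as far shorter. Of the 5 genes most like the OAS profile, 0 were also among the leading 5 by Euclidean distance and 2 with a pseudocount of 10. Over all genes, 294 were called lower by DESeq2, 146 by edgeR, 169 by limma-voom, 1035 by DESeq2 with the block and 809 by edgeR with the block, and this number ran from 117 to 596 when 1 sample was left out. Where not stated, the cause was not tested. Low Control estimated counts, 1.44 to 14.0, limit the precision of the fold of OAS2.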
